A study of Mus musculus with 36 samples.

Results

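The comparison described here sets Th17p cells grown with DFMO against iTreg cells grown with vehicle, and asks how far inhibited pathogenic Th17 cells still lay from untreated regulatory T cells. Members were chosen by the labels alone, which gave 12 of the 36 sequenced samples, or 6 of 18 libraries after the 2 sequencing runs of each library were summed. Th17p DFMO libraries came from pathogenic Th17 cultures given 100 µM DFMO (difluoromethylornithine), with IL-6 at 25 ng/ml, IL-1b at 20 ng/ml and IL-23 at 20 ng/ml. Th17p vehicle libraries came from the same cytokines without DFMO and stand beside them throughout. The iTreg vehicle libraries came from induced regulatory cultures given TGF-beta 1 at 2 ng/ml and no DFMO. The iTreg cultures given the same TGF-beta 1 and 100 µM DFMO lie outside the comparison and are named where used. All groups started from sorted naive CD4 T cells of wild-type C57BL/6 mouse spleen (CD44-, CD62L+, CD25-), were activated on plates with antibodies against CD3 and CD28 (1 µg/ml each), and were harvested at 68 h and sorted for live cells. Each group holds 3 libraries, 1 from each of the same 3 animals. Th17p DFMO and iTreg vehicle cells differ in cytokines and in inhibitor at once, so the 2 cannot be told apart within this comparison alone. The purity of the cultures is not given, and in bulk RNA fewer cells of a type and less RNA per cell cannot be told apart.

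Th17 cells are helper T cells that secrete IL-17, and regulatory T cells are suppressive cells that depend on FOXP3. Both fates can be reached from a naive CD4 T cell, TGF-beta alone favouring FOXP3 and IL-6 favouring the Th17 program, while IL-1b and IL-23 are associated with Th17 cells that drive tissue inflammation. DFMO blocks ornithine decarboxylase (Odc1), which makes putrescine, the first of the polyamines. Polyamines feed ribosome function, the hypusine modification of the translation factor eIF5A and cell growth, and cells sense their level through antizymes, which mark ornithine decarboxylase for degradation.

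The compared libraries held 8678959 to 13986943 estimated counts. Levels below are CPM, counts scaled to a common library total, and log2 fold changes are Th17p over iTreg, or DFMO over vehicle for changes with DFMO, with their standard error (SE) from edgeR, n = 3 animals per group. A gene is called higher or lower where edgeR's quasi-likelihood test, with p-values adjusted by Benjamini-Hochberg over 11526 genes, gave less than 0.05. CD4 T cell markers summed to between 3399 and 3579 CPM in Th17p DFMO libraries, 3256 and 3636 CPM in Th17p vehicle libraries, and 2669 and 2745 CPM in iTreg vehicle libraries. Markers of B cells summed to between 26.2 and 32.7 CPM in Th17p DFMO libraries, mostly Ebf1, 41.1 and 48.6 CPM in Th17p vehicle libraries, and 77.5 and 110 CPM in iTreg vehicle libraries, mostly the MHC class II chaperone Cd74. No B cell marker of the 11 found was at 0 in any of these groups. The 5 CD8 T cell markers, Gzmk among them at 0, reached at most 20.1 CPM in Th17p DFMO, 27.4 CPM in Th17p vehicle and 21.6 CPM in iTreg vehicle libraries. The 16 myeloid markers, with Cst3 the highest and Lyz2, S100a8, S100a9, Mpo and Elane at 0, reached at most 111 CPM in Th17p DFMO, 133 CPM in Th17p vehicle and 101 CPM in iTreg vehicle libraries. The 6 NK cell markers summed to at most 0.991 CPM and the 11 erythroid and platelet markers to at most 3.31 CPM in any of these libraries. Listed genes took up 79.9% ± 0.616 (SD, n = 3) of the full TPM scale in Th17p DFMO libraries and 73.9% ± 1.36 in iTreg vehicle libraries. The exact two-sided permutation p was 0.1, the smallest that 3 against 3 libraries allow. The part of these B cell markers and of that share in the results below was not tested.

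Inhibited Th17p cells lay about as far from untreated iTreg cells as uninhibited ones did, while the numbers called in several gene groups changed. Across all genes, the root mean square difference in log2 CPM between a Th17p DFMO and an iTreg vehicle library had a median of 1.05 (1.01 to 1.08 over 9 pairs). It was 1.08 (1.01 to 1.14) between Th17p vehicle and iTreg vehicle libraries. Libraries of the same group differed by 0.5 to 0.524 within Th17p DFMO and by 0.533 to 0.607 within iTreg vehicle. DFMO and vehicle Th17p libraries differed from each other by 0.864 (0.817 to 0.943).

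In Th17p DFMO against iTreg vehicle, edgeR called 2265 genes higher (19.7% of those tested) and 2108 lower (18.3%). In Th17p vehicle against iTreg vehicle it called 1810 higher (15.7%) and 1667 lower (14.5%). These comparisons share the iTreg libraries, and the difference between them is Th17p DFMO against Th17p vehicle, in which 1827 genes were higher (15.9%) and 1970 lower (17.1%). The median absolute log2 fold change over all genes was 0.36, 0.31 and 0.34 in these 3 comparisons, and 1407, 1276 and 976 called genes changed by at least 1 on the log2 scale. Every Th17p DFMO library lay outside the range of the iTreg vehicle libraries for 5659 genes, 49.1% of those tested. Without scaling factors the first split was 1556 higher and 2763 lower and the second 1477 higher and 2174 lower, and the median log2 fold change of all genes in the first comparison was -0.11 in place of 0.02. Without animal 2 in any group the first comparison called 1382 genes higher, the second 1180 higher and 1109 lower, and the third 1119 higher and 1297 lower. Without animal 1 the second called 1097 lower and the third 1197 higher. List counts of 3 or fewer below moved by up to 3 genes when an animal or a setting was changed.

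**Figure D1:**
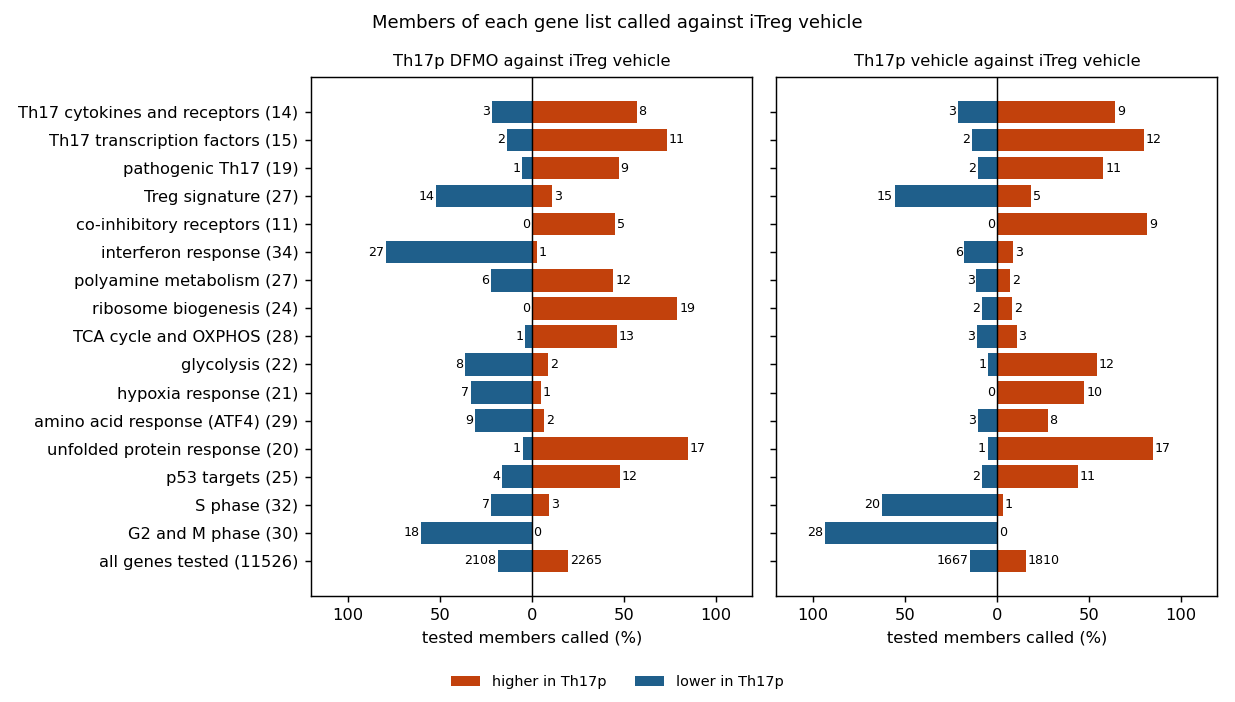
Percent of the tested members of each gene list (number tested in brackets) called higher (right, orange) or lower (left, blue) in edgeR, in Th17p DFMO against iTreg vehicle (left panel) and Th17p vehicle against iTreg vehicle (right panel), n = 3 animals per group. Bar labels are counts of genes. Interferon genes had 27 of 34 members lower with DFMO and 6 without, and ribosome biogenesis genes 19 of 24 higher with DFMO and 2 without.

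The cytokine genes of Th17 cells stayed far above iTreg levels under DFMO, some at reduced levels and some not. Il22 (chromosome 10, 118204942 to 118210047 on GRCm38), a cytokine acting on epithelium, had 307, 149 and 224 CPM in Th17p DFMO cells, 168, 469 and 134 CPM in Th17p vehicle cells, and 0 CPM in all 3 iTreg vehicle libraries. Inhibited and uninhibited Th17p cells overlapped, and iTreg cells held no count. Against a floor of 3 counts over the iTreg group, Il22 was at least 2295-fold higher in Th17p DFMO cells (adjusted p = 0.00054). Il21, a cytokine that acts back on Th17 and B cells, had 158, 130 and 156 CPM in Th17p DFMO cells, 154, 121 and 97.8 CPM in Th17p vehicle cells, and 0, 0 and 0.169 CPM in iTreg vehicle cells. Its summed counts were 2340-fold higher in Th17p DFMO than in iTreg vehicle cells (95% counting interval 647 to 19326). Neither gene was called between inhibited and uninhibited Th17p cells (log2 fold changes -0.18 ± 0.82 for Il22 and 0.26 ± 0.17 for Il21).

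Il17a and Il17f, the IL-17 cytokines that define the lineage, were much lower with DFMO yet above iTreg levels. Il17a had 26, 10.2 and 16.9 CPM in Th17p DFMO cells, 345, 531 and 360 CPM in Th17p vehicle cells, and 0.215, 0 and 0 CPM in iTreg vehicle cells. The 3 groups did not overlap. Its counts were 264-fold higher in Th17p DFMO than in iTreg vehicle cells (95% counting interval 72.8 to 2187, adjusted p = 0.00033), against 6514-fold in Th17p vehicle cells (1803 to 53793), and DFMO lowered it by 4.57 ± 0.55 on the log2 scale (adjusted p = 4.7e-05). Il17f averaged 160 ± 37.9 CPM in Th17p DFMO cells, 1420 ± 104 CPM in Th17p vehicle cells and 1.36 ± 0.629 CPM in iTreg vehicle cells (SD, n = 3 each), a log2 fold change of 6.88 ± 0.57 against iTreg cells that was 10.03 ± 0.59 without DFMO. Il23r, the receptor for IL-23, had 13.1, 11.9 and 10.7 CPM in Th17p DFMO cells, 66.3, 55.7 and 39.9 CPM in Th17p vehicle cells, and 0, 0 and 0.0843 CPM in iTreg vehicle cells. It was called between every pair of these groups, 378-fold higher than in iTreg cells with DFMO (67.4 to 14952) and lowered by DFMO by 2.18 ± 0.24. Il24 and the IL-1 receptor Il1r1 had the same order, with log2 fold changes of 6.48 ± 0.44 and 3.66 ± 0.69 in Th17p DFMO cells against iTreg cells, and 8.40 ± 0.43 and 6.04 ± 0.68 without DFMO.

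Of 14 tested Th17 cytokine and receptor genes, 8 were higher and 3 lower in Th17p DFMO than in iTreg vehicle cells, with a median log2 fold change of 2.51. Without DFMO 9 were higher and 3 lower, with a median of 4.11, and DFMO lowered 7 and raised 0. The median over all genes was 0.02 and -0.00. The members lower than in iTreg cells were Il6ra (-1.34 ± 0.19) and Il6st (-1.83 ± 0.19), the 2 chains of the IL-6 receptor, and the chemokine receptor Ccr6 (-1.94 ± 0.20), all 3 lower without DFMO as well.

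The transcription factors of the Th17 program moved less than its cytokines. Batf, which opens chromatin with IRF4, had 162, 142 and 149 CPM in Th17p DFMO cells, 175, 211 and 192 CPM in Th17p vehicle cells, and 52.9, 48.7 and 47.4 CPM in iTreg vehicle cells. The groups did not overlap, and the log2 fold change against iTreg cells was 1.60 ± 0.13 with DFMO and 1.95 ± 0.13 without. Rora, a nuclear receptor gene, averaged 36.9 ± 3.4 CPM in Th17p DFMO cells, 62.7 ± 5.78 CPM in Th17p vehicle cells and 37.6 ± 8.78 CPM in iTreg vehicle cells. It was higher than in iTreg cells without DFMO (0.73 ± 0.25) and was not called with it (-0.03 ± 0.25). The Rora call without DFMO was lost without animal 1 or 2 (0.62 and 0.75, adjusted p = 0.27 and 0.083) and without scaling factors (0.65, adjusted p = 0.058). Irf4 (0.60 ± 0.08), Hif1a (1.46 ± 0.13), Fosl2 (2.52 ± 0.19) and Etv6 (1.67 ± 0.15) remained above iTreg levels, and each fold change was smaller than without DFMO. DFMO lowered Batf, Irf4, Hif1a and Etv6 in its own test, and Fosl2 was not called (-0.25 ± 0.17). Ahr, a sensor of small aromatic molecules, was lower than in iTreg cells with DFMO (-1.77 ± 0.32) and without (-1.07 ± 0.31). Maf had a log2 fold change of 1.61 ± 0.70 that was not called (adjusted p = 0.088), was called with a block for the animal (1.63, adjusted p = 0.044) or without animal 3 (1.60, adjusted p = 0.02), and stood at 2.38 ± 0.67 without DFMO. Of 15 tested factors 11 were higher and 2 lower with DFMO, 12 and 2 without, and DFMO lowered 9 and raised 0.

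**Figure D2:**
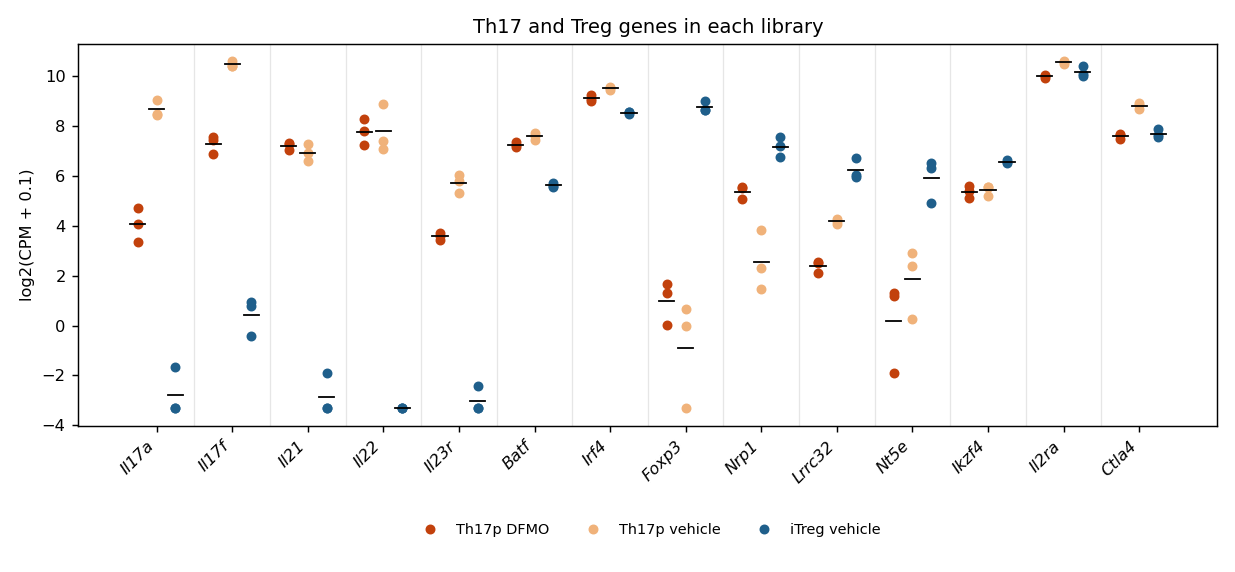
Level of Th17 genes (left) and Treg genes (right) in each library as log2(CPM + 0.1), with Th17p DFMO, Th17p vehicle and iTreg vehicle libraries side by side for each gene. Points are animals, short lines are means over 3 animals, and a point near the bottom of the axis is a library with no count. Il17a lies between 10.2 and 26 CPM in Th17p DFMO cells, 345 and 531 CPM in Th17p vehicle cells and 0 and 0.215 CPM in iTreg vehicle cells, while Foxp3 lies at most at 3.06 CPM in Th17p DFMO cells.

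Genes tied to pathogenic Th17 cells kept about the same count and changed in makeup. Of 19 tested, 9 were higher and 1 lower than in iTreg cells with DFMO (median 1.16), and 11 were higher and 2 lower without (median 1.70). The acid sensor Gpr65 (2.38 ± 0.30), the costimulator Icos (1.16 ± 0.09) and Casp1 (2.44 ± 0.67), the protease that matures IL-1b, were higher, the last not without animal 1 (2.25, adjusted p = 0.12). Serpinb9, an inhibitor of granzyme B, had 185, 150 and 171 CPM in Th17p DFMO cells, 43.7, 64 and 69.4 CPM in Th17p vehicle cells and 36.7, 37.1 and 52.3 CPM in iTreg vehicle cells. Only the inhibited cells stood apart, and the gene was called with DFMO (2.00 ± 0.20) and not without it (0.49 ± 0.20). In alternative fits Serpinb9 was called higher without DFMO by DESeq2 (0.49, adjusted p = 0.043) and with a block for the animal (0.50, adjusted p = 0.02). It was also called without animal 3 (0.55, adjusted p = 0.041) and with run 1 alone (0.54, adjusted p = 0.028). Tgfb3 had 0.112, 0.635 and 0.255 CPM in Th17p DFMO cells, 22.8, 25 and 38.4 CPM in Th17p vehicle cells and 0.753, 0.736 and 1.26 CPM in iTreg vehicle cells. Its log2 fold change against iTreg cells was -1.32 ± 0.55 with DFMO, not called, and 4.93 ± 0.37 without, and the first was called without animal 2 (-2.37, adjusted p = 0.041) or without scaling factors (-1.43, adjusted p = 0.047). The chemokine gene Ccl5 had 10.1, 4.94 and 12.9 CPM in Th17p DFMO cells, 149, 179 and 136 CPM in Th17p vehicle cells and 7.21, 31.4 and 33.6 CPM in iTreg vehicle cells. Ccl3 was higher with DFMO (1.21 ± 0.40), though not without animal 2 (1.18, adjusted p = 0.23). It was lower without DFMO (-1.39 ± 0.44), and that call too was lost without animal 2 (-1.54, adjusted p = 0.18). Tbx21, the Th1 factor T-bet, was higher (1.52 ± 0.40), though not without animal 1 or animal 2 (adjusted p = 0.056 and 0.2). Csf2 was not tested, with 12 counts in Th17p DFMO cells, 1 in Th17p vehicle cells and 3 in iTreg vehicle cells.

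Foxp3 separated the inhibited Th17p cells from iTreg cells almost as fully as it separated uninhibited ones. Foxp3 (chromosome X, 7573644 to 7595245) had 2.35, 0.917 and 3.06 CPM in Th17p DFMO cells, 0.881, 0 and 1.47 CPM in Th17p vehicle cells, and 516, 397 and 393 CPM in iTreg vehicle cells. No Th17p library came near the iTreg range. The log2 fold change against iTreg cells was -7.73 ± 0.43 with DFMO (adjusted p = 2e-08) and -9.01 ± 0.48 without, and the change with DFMO, 1.27 ± 0.73, was not called. That change was called by DESeq2 (1.33, adjusted p = 0.035) and by limma on log2(TPM + 0.1) (1.25, adjusted p = 0.039).

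Other Treg genes fell into 3 patterns. Some stayed as low as without DFMO: Ikzf4, a partner of FOXP3, had log2 fold changes of -1.19 ± 0.12 with DFMO and -1.12 ± 0.12 without, and Ebi3, a chain of IL-35, -1.46 ± 0.20 and -1.50 ± 0.20. Some lay closer to iTreg levels. Nrp1, a surface receptor, had 46.7, 33.2 and 45 CPM in Th17p DFMO cells, 14.2, 4.88 and 2.66 CPM in Th17p vehicle cells, and 187, 147 and 108 CPM in iTreg vehicle cells. It was called in each comparison among these 3 groups (-1.82 ± 0.37 against iTreg cells with DFMO, -4.36 ± 0.44 without), except that without animal 2 the first call was lost (-1.72, adjusted p = 0.066). Ikzf2, the gene of Helios, was lower than in iTreg cells without DFMO (-2.07 ± 0.35) and not called with it (-0.50 ± 0.33). DFMO raised Ikzf2 by 1.57 ± 0.35.

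Others lay further away. Lrrc32, the gene of GARP, which holds latent TGF-beta on the cell surface, had 5.7, 5.64 and 4.26 CPM in Th17p DFMO cells, 16.6, 19.3 and 18.4 CPM in Th17p vehicle cells, and 104, 62.5 and 66.2 CPM in iTreg vehicle cells. Inhibited cells were the lowest of the 3, with log2 fold changes against iTreg cells of -3.90 ± 0.22 with DFMO and -2.10 ± 0.20 without. The ectonucleotidases that turn extracellular ATP into adenosine were both lower with DFMO: Entpd1 (CD39) at -2.43 ± 0.47, where uninhibited cells were higher than iTreg cells by 1.64 ± 0.39, and Nt5e (CD73) at -5.42 ± 1.24, not called without animal 1 or 2 (both -5.59, adjusted p = 0.095 and 0.069). The higher Entpd1 level of uninhibited cells was not called without animal 2 (1.39, adjusted p = 0.11). Nt5e was also lower without DFMO (-3.90 ± 1.10), not called without animal 1 or 2 (-4.35 and -3.74, adjusted p = 0.18 and 0.15). Its difference between inhibited and uninhibited cells was not called (-1.51 ± 1.45). Tnfrsf9, the costimulator 4-1BB, had 91.7, 90.9 and 112 CPM in Th17p DFMO cells, 370, 406 and 482 CPM in Th17p vehicle cells, and 224, 298 and 362 CPM in iTreg vehicle cells, and was lower than in iTreg cells with DFMO (-1.59 ± 0.23) and not called without (0.51 ± 0.23).

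Ctla4 and Il2ra, surface molecules shared by activated and regulatory T cells, were not called between inhibited Th17p and iTreg cells. Ctla4 had 205, 200 and 180 CPM in Th17p DFMO cells, 404, 455 and 480 CPM in Th17p vehicle cells, and 190, 199 and 234 CPM in iTreg vehicle cells. Il2ra, the IL-2 receptor chain CD25, had 1043, 964 and 1030 CPM in Th17p DFMO cells, 1450, 1526 and 1538 CPM in Th17p vehicle cells, and 1353, 1086 and 1034 CPM in iTreg vehicle cells. Inhibited Th17p cells overlapped iTreg cells for both genes while uninhibited cells were above them. Log2 fold changes against iTreg cells were -0.09 ± 0.16 for Ctla4 and -0.19 ± 0.10 for Il2ra with DFMO, neither called, and 1.10 ± 0.16 and 0.38 ± 0.10 without, both called. Without scaling factors Il2ra was called lower with DFMO (-0.32, adjusted p = 0.014). Its call without DFMO was lost without animal 2 or 3 (0.30 and 0.29, adjusted p = 0.22 and 0.071). Over the Treg signature, 14 of 27 tested genes were lower and 3 higher with DFMO (median -0.84), and 15 were lower and 5 higher without (median -1.12).

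**Figure D3:**
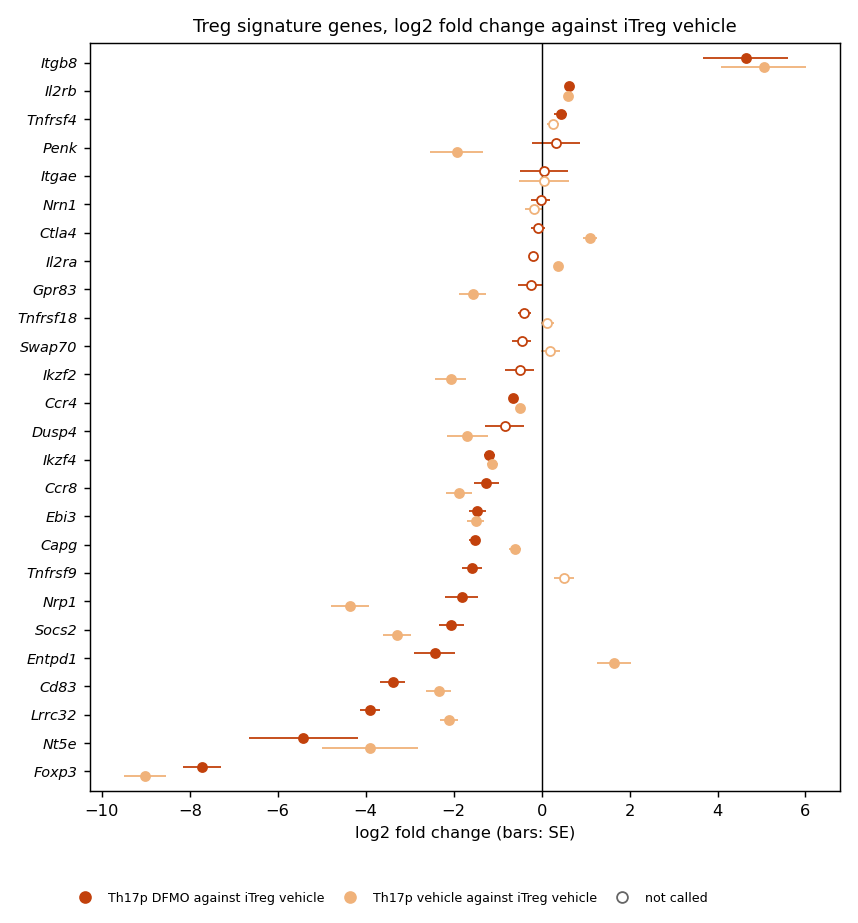
Log2 fold change (± SE) of each Treg signature gene against iTreg vehicle, for Th17p DFMO (dark) and Th17p vehicle (light), n = 3 animals per group. Filled points are called in edgeR and open points are not. Il12a, which had no count in either Th17p group, is left out. Foxp3 is lowest in both comparisons. Nrp1 lies closer to 0 with DFMO (-1.82) than without (-4.36), and Entpd1 is below 0 with DFMO (-2.43) and above it without (1.64).

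Of the genes that respond to the cytokines of the media, single members differed between Th17p and iTreg cells. Socs3, a target and inhibitor of IL-6 signalling, had 233, 224 and 254 CPM in Th17p DFMO cells, 370, 404 and 407 CPM in Th17p vehicle cells and 33.5, 33.7 and 41.1 CPM in iTreg vehicle cells. It was higher by 2.71 ± 0.11 with DFMO (adjusted p = 3.8e-13) and by 3.44 ± 0.11 without. Of 10 tested genes of the IL-6 and STAT3 response 6 were higher and 2 lower with DFMO, and 7 and 1 without. Tead1, a transcription factor higher in the TGF-beta cultures, had 2.68, 1.34 and 2.64 CPM in Th17p DFMO cells, 0.11, 0.93 and 0.0919 CPM in Th17p vehicle cells, and 32.1, 29.1 and 25.5 CPM in iTreg vehicle cells. The receptor Tgfbr1 (-1.81 ± 0.21) was also lower, and Smad3 (1.58 ± 0.15) and Id2 (2.43 ± 0.16) were higher. Of 21 TGF-beta response genes 5 were higher and 6 lower with DFMO (median 0.05, but -0.07 without scaling factors), and 5 and 9 without DFMO. The shares with DFMO, 23.8% higher and 28.6% lower, stand beside 19.7% and 18.3% of all genes. Of 16 IL-1 and NF-kB response genes 4 were higher and 4 lower with DFMO (median -0.23), and 5 and 5 without (median -0.22). Il2 itself had 441, 547 and 402 CPM in Th17p DFMO cells, 68.3, 121 and 98.3 CPM in Th17p vehicle cells, and 80.8, 47.5 and 87.5 CPM in iTreg vehicle cells. Inhibited cells stood above both other groups, by 2.69 ± 0.31 over iTreg cells, and the Th17p vehicle cells were not called (0.41 ± 0.30).

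Of the genes furthest apart, several were secreted or matrix proteins. The genes of this paragraph were ranked among those with a mean log2 CPM of at least 2 over the 18 libraries, so that genes with lower levels, such as Ifit3 (-6.30 ± 1.39), are not among them. Apart from the cytokines, the highest were Lum, a matrix proteoglycan (183, 119 and 149 CPM in Th17p DFMO, 277, 358 and 299 CPM in Th17p vehicle, and 0.108, 0 and 0 CPM in iTreg vehicle cells), and Timp1, an inhibitor of metalloproteases (9.03 ± 0.55). They were followed by Inhba, the activin A subunit (7.54 ± 0.41), the lysophospholipase Enpp2 (119-fold from summed counts, 95% interval 40.4 to 579), Serpinf1 (6.05 ± 0.37), the integrin Itga3 (5.89 ± 0.23), and the gene listed as LILRB4 (5.09 ± 0.30). Lum, Timp1, Enpp2, Serpinf1 and LILRB4 were lowered by DFMO, and Inhba and Itga3 raised (1.33 ± 0.28 and 0.79 ± 0.17). The lowest at this level, apart from Foxp3 and Nt5e, were Ctsw (-6.25 ± 0.67), Rtkn (-6.13 ± 0.40), Ifi203 (-6.00 ± 0.40), Irf7 (-5.52 ± 0.61), the water channel Aqp3 (-5.51 ± 0.79), Tbc1d4 (-5.51 ± 0.58), Nos2 (-5.34 ± 0.43), Isg20 (-5.25 ± 0.50), Tmem176a (-5.13 ± 0.63) and Cd40 (-5.03 ± 0.50). Reads of Ifi203 and LILRB4 can be shared with near-identical family members, so these 2 values are uncertain. Without DFMO each of these 10 lower genes except Irf7 (-0.71 ± 0.46, not called) was also lower, Cd40 by 4.74 ± 0.50 and Nos2 by 1.65 ± 0.32. An edgeR fit of the compared groups alone did call Irf7 lower without DFMO (-0.71, adjusted p = 0.0063).

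Th17p cells given DFMO differed from untreated iTreg cells in polyamine genes, a difference that was largely missing without the drug. Of 27 tested polyamine genes 12 were higher and 6 lower than in iTreg cells with DFMO (median 0.36, or 9 and 9 with a median of 0.23 without scaling factors), and 2 were higher and 3 lower without (median 0.00). The shares with DFMO, 44.4% higher and 22.2% lower, stand beside 19.7% and 18.3% of all genes. The lower count is near the share of all genes. Without DFMO the shares were 7.41% and 11.1%, beside 15.7% and 14.5%. Odc1, the target of DFMO, had 315, 312 and 319 CPM in Th17p DFMO cells, 157, 235 and 204 CPM in Th17p vehicle cells and 151, 165 and 172 CPM in iTreg vehicle cells, so that uninhibited Th17p cells overlapped the iTreg range and inhibited cells did not. Its log2 fold change against iTreg cells was 0.96 ± 0.13 with DFMO (adjusted p = 1.8e-05) and 0.29 ± 0.13 without, not called. Odc1 was called higher without DFMO with a block for the animal (0.28, adjusted p = 0.049) and without animal 1 (0.37, adjusted p = 0.02). The drug blocks the enzyme, and its transcript is no check of the labels.

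The genes around Odc1 split by role. Amd1, which makes the aminopropyl donor for spermidine and spermine, had 410, 418 and 373 CPM in Th17p DFMO cells, 177, 168 and 158 CPM in Th17p vehicle cells and 156, 154 and 145 CPM in iTreg vehicle cells. Azin1, which shields ornithine decarboxylase from antizyme, had 231, 267 and 238 CPM in Th17p DFMO cells, 104, 104 and 96.5 CPM in Th17p vehicle cells and 110, 96.9 and 99.8 CPM in iTreg vehicle cells. Both were higher than in iTreg cells with DFMO (1.40 ± 0.08 and 1.26 ± 0.10) and not called without (0.14 ± 0.08 and -0.01 ± 0.10). The antizymes Oaz1 and Oaz2, which mark the enzyme for degradation, were lower by 0.92 ± 0.07 and 1.82 ± 0.16 and also not called without DFMO. Oaz2 had 16.8, 16.7 and 14.4 CPM in Th17p DFMO cells, 66.1, 62.4 and 74 CPM in Th17p vehicle cells and 55.3, 56.7 and 57.2 CPM in iTreg vehicle cells. The spermine synthase Sms (0.49 ± 0.08), the methionine enzyme Mat2a (0.59 ± 0.14, not called without animal 2 or 3, adjusted p = 0.087 and 0.066), and Dhps (0.53 ± 0.10), Dohh (0.44 ± 0.09) and Eif5a (0.40 ± 0.07), the 2 hypusine enzymes and their substrate, were higher. In iTreg cells given DFMO, Mat2a averaged 412 CPM, Dhps 55.3 CPM, Dohh 141 CPM and Eif5a 3531 CPM. The same genes averaged 243, 45.5, 103 and 1888 CPM in iTreg vehicle cells and 366, 65.7, 139 and 2484 CPM in Th17p DFMO cells. Whether the polyamine differences are particular to Th17p cells was not tested. Odc1, Oaz1 and Amd1 have related copies or pseudogenes in the mouse genome, and how the counting split their reads is not given.

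Smox, the spermine oxidase, was lowered by DFMO and yet stayed above iTreg levels. It had 111, 91.9 and 141 CPM in Th17p DFMO cells, 279, 398 and 406 CPM in Th17p vehicle cells and 33.5, 33.4 and 36.4 CPM in iTreg vehicle cells. It was higher than in iTreg cells with DFMO (1.73 ± 0.23) and without (3.39 ± 0.24), and DFMO lowered it by 1.66 ± 0.22. Paox, the other polyamine oxidase listed, was lower (-0.75 ± 0.19). It averaged 22.8 CPM in Th17p DFMO cells, 38.3 CPM in iTreg vehicle cells and 15.1 CPM in iTreg cells given DFMO. Srm, the spermidine synthase, had 59.9, 65.8 and 159 CPM in Th17p DFMO cells and 30.4, 33.7 and 89.1 CPM in iTreg vehicle cells, with animal 3 high in both. It was not called (0.89 ± 0.63) but was with the animal as a block (0.91, adjusted p = 0.019) and without animal 3 (0.97, adjusted p = 0.0036). Sat1, which acetylates polyamines for export, had 450, 31.5 and 498 CPM in Th17p DFMO cells, 473, 33.1 and 470 CPM in Th17p vehicle cells, and 270, 26.9 and 296 CPM in iTreg vehicle cells, with animal 2 low in each group. It was not called (0.72 ± 1.36) but was with the block (0.60, adjusted p = 0.004) and without animal 2 (0.72, adjusted p = 0.00068).

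**Figure D4:**
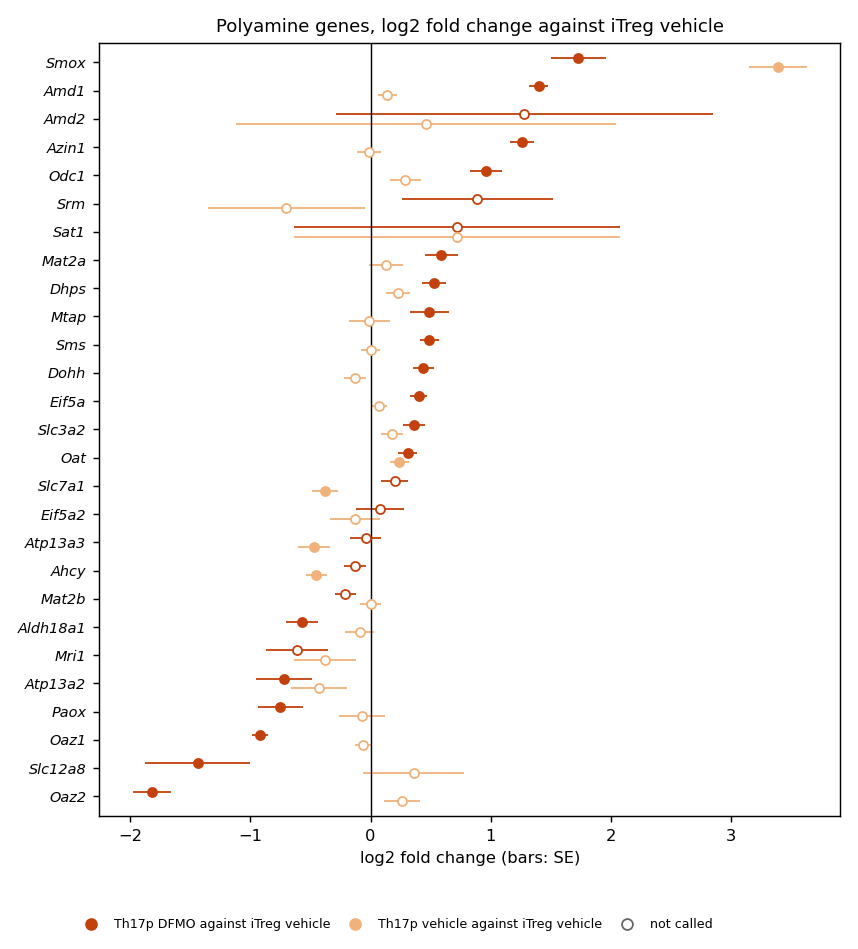
Log2 fold change (± SE) of each tested polyamine gene against iTreg vehicle, for Th17p DFMO (dark) and Th17p vehicle (light), n = 3 animals per group. Filled points are called in edgeR and open points are not. Amd1 (1.40 with DFMO, 0.14 without), Azin1 (1.26 and -0.01), Oaz1 (-0.92 and -0.06) and Oaz2 (-1.82 and 0.26) depart from zero with DFMO, and Smox is called in both.

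Interferon response genes had the lowest median of the gene lists described here under DFMO. Interferons act through STAT and IRF factors on a promoter element, the ISRE, to induce antiviral genes. Of 34 tested members 27 were lower and 1 higher in Th17p DFMO than in iTreg vehicle cells, with a median log2 fold change of -2.10. In Th17p vehicle cells 6 were lower and 3 higher, with a median of -0.28, and DFMO lowered 31 and raised 0. Irf7, the factor that amplifies the response, had 1.9, 2.54 and 1.19 CPM in Th17p DFMO cells, 53.6, 57.9 and 49.1 CPM in Th17p vehicle cells, and 71.3, 79.5 and 112 CPM in iTreg vehicle cells. Inhibited cells lay far below both of these other groups (-5.52 ± 0.61 against iTreg vehicle cells, adjusted p = 1.1e-05). In iTreg cells given DFMO, Irf7 had 20.6, 14.9 and 1.92 CPM.

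Several antiviral effectors were also lower in inhibited cells than in both Th17p vehicle and iTreg vehicle cells. Ifit3, an antiviral protein, had 0.335, 0 and 0.426 CPM in Th17p DFMO cells, 12.9, 31.7 and 16.4 CPM in Th17p vehicle cells and 23.9, 18.5 and 15.5 CPM in iTreg vehicle cells. Isg15, a ubiquitin-like protein, had 4.36, 6.63 and 3.75 CPM in Th17p DFMO cells, 51.9, 88.2 and 60.5 CPM in Th17p vehicle cells and 53.5, 73.1 and 106 CPM in iTreg vehicle cells. In iTreg cells given DFMO, Ifit3 had 33.2, 27.2 and 0.437 CPM, and Isg15 had 7.08, 6.14 and 1.92 CPM. Whether the lower interferon genes are particular to Th17p cells was not tested. Against iTreg cells Ifit3 was lower by 6.30 ± 1.39, Isg15 by 3.96 ± 0.42, the 2-5A synthase Oas1a by 5.73 ± 1.15, Rsad2 by 5.70 ± 0.86 and Usp18 by 5.03 ± 0.58 with DFMO. Without animal 1 or 2 the calls of Ifit3 (adjusted p = 0.085 and 0.095) and Oas1a (0.064 and 0.059) were lost, at changes of -5.66 or lower. None of these 5 was called without DFMO, where their log2 fold changes lay between -0.84 and 0.66. In alternative fits without DFMO, Usp18 was called lower with the compared groups alone (-0.83, adjusted p = 0.0062) and without animal 3 (-0.57, adjusted p = 0.046). Rsad2 was called higher by limma on log2(TPM + 1) (0.45, adjusted p = 0.033). The signalling factors of the pathway moved less: Stat2 was lower by 1.73 ± 0.16 and Irf9 by 1.13 ± 0.11. The member called higher was Gbp2, a guanylate-binding protein, with 103, 143 and 110 CPM in Th17p DFMO cells, 615, 246 and 430 CPM in Th17p vehicle cells and 65.1, 53.3 and 94.3 CPM in iTreg vehicle cells. Gbp2 was higher than in iTreg cells by 0.74 ± 0.28 with DFMO and 2.60 ± 0.29 without. The first of these calls (adjusted p = 0.049) was lost without scaling factors (adjusted p = 0.099), with a block for the animal (0.066) and without animal 1, 2 or 3 (0.14, 0.14 and 0.11), and in these fits no member was called higher.

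Promoters of these genes (250 bases before to 50 after the start, RefSeq, GRCm38.p6) were searched on both strands for the ISRE letters, GAAA, a gap of 2 bases, and GAAA. Of 34 tested interferon genes 25 had a promoter in the table and 15 of these held the letters (60%), against 271 of 8832 promoters of all tested genes (3.07%). Of 21 called members with a promoter 12 held them. The 3 called members with the letters and the largest fold changes are shown, because they let a reader see the element beside its gene, with the matching letters in capitals. Ifit3 lies at chr19:34583279-34583578 on the plus strand and holds 2 matches, Oas1a at chr5:120907476-120907775 on the minus strand with 2 overlapping matches, and Rsad2 at chr12:26456403-26456702 on the minus strand with 1. Each sequence is written 5′ to 3′ on the strand of its gene, and the matches in Ifit3 and Rsad2 are to the reverse complement, TTTC, 2 bases, TTTC.
Ifit3 promoter: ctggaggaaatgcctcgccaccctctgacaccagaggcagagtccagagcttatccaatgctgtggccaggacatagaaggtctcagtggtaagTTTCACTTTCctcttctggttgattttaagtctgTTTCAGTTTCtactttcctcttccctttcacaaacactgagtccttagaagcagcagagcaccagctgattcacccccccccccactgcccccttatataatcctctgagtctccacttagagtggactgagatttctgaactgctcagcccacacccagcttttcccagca
Oas1a promoter: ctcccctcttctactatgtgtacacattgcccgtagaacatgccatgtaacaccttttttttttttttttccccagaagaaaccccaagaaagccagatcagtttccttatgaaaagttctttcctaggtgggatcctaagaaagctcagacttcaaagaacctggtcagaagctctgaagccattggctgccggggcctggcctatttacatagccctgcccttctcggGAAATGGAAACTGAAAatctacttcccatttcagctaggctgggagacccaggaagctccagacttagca
Rsad2 promoter: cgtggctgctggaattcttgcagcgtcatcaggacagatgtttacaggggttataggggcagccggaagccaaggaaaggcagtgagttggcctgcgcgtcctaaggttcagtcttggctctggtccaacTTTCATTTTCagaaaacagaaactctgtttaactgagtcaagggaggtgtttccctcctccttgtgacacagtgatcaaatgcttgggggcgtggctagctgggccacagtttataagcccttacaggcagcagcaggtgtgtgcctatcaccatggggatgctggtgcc

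**Figure D5:**
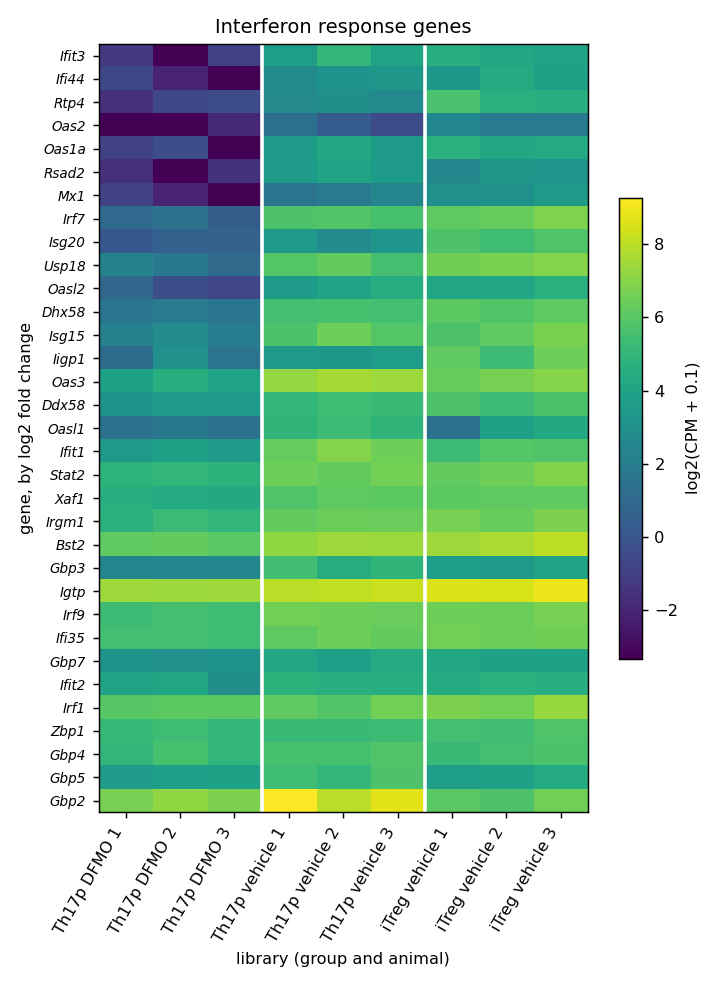
Level of tested interferon response genes as log2(CPM + 0.1), colour from dark (low) to yellow (high), in the 3 Th17p DFMO, 3 Th17p vehicle and 3 iTreg vehicle libraries. Genes run by log2 fold change of Th17p DFMO against iTreg vehicle, lowest at the top. The darkest cells are those of Th17p DFMO libraries for Ifit3, Ifi44, Rtp4, Oas2, Oas1a, Rsad2 and Mx1, and Gbp2 at the bottom is brightest in Th17p vehicle cells.

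Genes that build ribosomes were higher in inhibited Th17p cells than in iTreg cells. Of 24 tested members 19 were higher and 0 lower with DFMO (median 0.46), 2 were higher and 2 lower without (median -0.07), and DFMO raised 20 and lowered 0. Without animal 2 the first count was 12. Rrp12, which helps export ribosomal subunits, had 108, 119 and 106 CPM in Th17p DFMO cells, 53.6, 52.5 and 59.3 CPM in Th17p vehicle cells, and 38.2, 34.2 and 34.7 CPM in iTreg vehicle cells. The RNA polymerase I and III subunit Polr1c (0.94 ± 0.09), Rrp9 (0.87 ± 0.09), Nop16 (0.67 ± 0.10) and the nucleolar protein Ncl (0.29 ± 0.06) were higher, and the last was lower without DFMO (-0.25 ± 0.06). Genes of the citric acid cycle and respiratory chain were 13 higher and 1 lower of 28 with DFMO and 3 and 3 without, with small changes (median 0.16). Citrate synthase (Cs) was higher by 0.54 ± 0.07 and the ATP synthase subunit Atp5b by 0.45 ± 0.06. That count of 13 was 5 without scaling factors, 8 with RLE scaling, 5 without animal 2, 6 without animal 3, 8 with the compared groups alone and 8 with run 2 alone.

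More glycolysis and hypoxia genes were lower than higher in inhibited Th17p cells against iTreg cells and more were higher than lower in uninhibited ones, and many members were not called. Of 22 glycolysis genes 2 were higher and 8 lower with DFMO (median -0.21), and 12 were higher and 1 lower without (median 0.35). Slc2a3, a glucose transporter, had 32.2, 57.4 and 38.3 CPM in Th17p DFMO cells, 377, 321 and 392 CPM in Th17p vehicle cells and 71.1, 64.5 and 81 CPM in iTreg vehicle cells. It was lower than in iTreg cells with DFMO (-0.75 ± 0.27, not called without animal 3, -0.58, adjusted p = 0.31) and higher without (2.33 ± 0.27). The aldolase Aldoc did the same (-2.49 ± 0.22 and 1.17 ± 0.20), and lactate dehydrogenase Ldha had -0.25 ± 0.08 and 0.24 ± 0.08. The first Ldha call was lost without animal 1 or 2 (adjusted p = 0.09 and 0.091). The second was lost without animal 2 or 3 (0.20 and 0.17, adjusted p = 0.32 and 0.24) and without scaling factors (0.15, adjusted p = 0.16). Hexokinase 2 (Hk2) was higher in both (1.46 ± 0.19 and 1.31 ± 0.19) and the enolase Eno3 lower in both (-2.87 ± 0.24 and -3.12 ± 0.25). Of 21 hypoxia genes 1 was higher and 7 lower with DFMO (median -0.32), and 10 were higher and 0 lower without (median 0.75). Bnip3, a mitophagy receptor, had 101, 122 and 101 CPM in Th17p DFMO cells, 579, 485 and 487 CPM in Th17p vehicle cells and 293, 240 and 198 CPM in iTreg vehicle cells. Its call was lost without animal 1 or 2 (-0.97 and -1.31, adjusted p = 0.12 and 0.055). Without animal 2 the lower glycolysis genes numbered 5 and the lower hypoxia genes 4.

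Amino acid response genes were more often lower than higher with DFMO, and unfolded protein response genes were mostly higher than in iTreg cells with DFMO and without. Of 29 ATF4 target genes 2 were higher and 9 lower with DFMO (median -0.29, 5 lower without animal 3), and 8 and 3 without DFMO (median 0.34). Phgdh, which starts serine synthesis, was lower with DFMO (-1.01 ± 0.09) and without (-0.89 ± 0.09), and Pycr1, a proline enzyme, was lower with DFMO (-1.46 ± 0.20) and not called without (0.47 ± 0.19). Of 20 unfolded protein response genes 17 were higher and 1 lower in both comparisons, with medians of 0.59 with DFMO and 0.64 without (11 higher with DFMO without animal 1). Between the Th17p groups, DFMO lowered 7 of the 20 and raised 0. Hspa5, the chaperone BiP of the endoplasmic reticulum, had 1702, 1608 and 1572 CPM in Th17p DFMO cells, 2087, 2199 and 2229 CPM in Th17p vehicle cells and 671, 754 and 866 CPM in iTreg vehicle cells. The groups did not overlap, with log2 fold changes of 1.09 ± 0.08 and 1.51 ± 0.08 against iTreg cells. Creld2 (1.33 ± 0.13), Hsp90b1 (0.87 ± 0.06), Pdia6 (0.92 ± 0.07) and Hyou1 (1.09 ± 0.09) were higher, and Xbp1, a transcription factor of this response, was lower (-0.86 ± 0.12).

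The promoters of this list were searched for the endoplasmic reticulum stress element, CCAAT, a gap of 9 bases, and CCACG, on both strands. Of 18 members with a promoter 8 held it (44.4%), against 16 of 8832 promoters of all tested genes (0.181%). The 2 members with the letters and the largest fold changes are printed with the element in capitals. Creld2 lies at chr15:88819396-88819695 on the plus strand with a match to the reverse complement, and Hspa5 at chr2:34771840-34772139 on the plus strand with a match as written.
Creld2 promoter: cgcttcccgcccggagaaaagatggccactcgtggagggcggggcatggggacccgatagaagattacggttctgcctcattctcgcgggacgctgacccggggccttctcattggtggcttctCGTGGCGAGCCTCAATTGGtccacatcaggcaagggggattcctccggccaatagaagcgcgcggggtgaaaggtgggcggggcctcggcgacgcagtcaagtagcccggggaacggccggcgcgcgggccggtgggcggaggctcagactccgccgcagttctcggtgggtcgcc
Hspa5 promoter: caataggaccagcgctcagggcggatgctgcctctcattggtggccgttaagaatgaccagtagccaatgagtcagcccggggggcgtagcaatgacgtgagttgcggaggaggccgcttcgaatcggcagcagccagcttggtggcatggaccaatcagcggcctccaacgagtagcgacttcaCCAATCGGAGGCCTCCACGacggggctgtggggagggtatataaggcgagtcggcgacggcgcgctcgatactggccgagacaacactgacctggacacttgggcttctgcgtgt

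Genes of the G2 and M phases of cell division were lower in both kinds of Th17p cell than in iTreg cells, fewer of them with DFMO. Of 30 G2 and M phase genes 18 were lower and 0 higher with DFMO (median -0.33, 9 lower without animal 1), and 28 were lower and 0 higher without (median -0.50). Mki67, the proliferation antigen, had 193, 240 and 220 CPM in Th17p DFMO cells, 217, 174 and 187 CPM in Th17p vehicle cells, and 417, 370 and 355 CPM in iTreg vehicle cells, a log2 fold change of -0.81 ± 0.10 with DFMO and -0.98 ± 0.10 without. Nusap1 (-0.97 ± 0.10), Cenpa (-0.74 ± 0.08) and Aurkb (-0.68 ± 0.09), genes of the spindle and centromere, were lower. Of 32 S phase genes 3 were higher and 7 lower with DFMO (median -0.10, and 3 lower without animal 1 or 11 lower without scaling factors), against 1 and 20 without DFMO. The 21.9% of S phase genes lower with DFMO is near the 18.3% of all genes. DFMO raised 15 of them and lowered 2. Tyms, the thymidylate synthase, was lower without DFMO (-0.89 ± 0.11) and not called with it (-0.26 ± 0.11), though it was without animal 2 (-0.43, adjusted p = 0.036) or without scaling factors (-0.38, adjusted p = 0.0078). The ribonucleotide reductase Rrm1 was lower without DFMO (-0.36 ± 0.09), and its value with DFMO (0.24 ± 0.09, adjusted p = 0.04) was not called under 11 of the 13 alternatives. The letters TTTGAA of the cell cycle element CHR were in 20 of 25 promoters of the G2 and M phase list (80%) and in 1040 of 8832 promoters of all tested genes (11.8%).

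Targets of p53 were more often higher than lower in both comparisons, 12 and 4 of 25 with DFMO (median 0.59, 2 lower without animal 2) and 11 and 2 without. Ccng1, a cyclin induced by p53, had 673, 605 and 594 CPM in Th17p DFMO cells, 396, 446 and 440 CPM in Th17p vehicle cells and 281, 281 and 270 CPM in iTreg vehicle cells (1.17 ± 0.12). Mdm2, which degrades p53, was higher by 0.89 ± 0.10 and the nuclease Aen by 0.87 ± 0.12, while Sesn1, a stress-induced inhibitor of mTORC1, was lower by 2.12 ± 0.14. Cdkn1a, the cell cycle inhibitor p21, was not called with DFMO (0.37 ± 0.22) and was higher without (0.87 ± 0.22). An edgeR fit of the compared groups alone did call it higher with DFMO (0.34, adjusted p = 0.031). The call without DFMO was lost without animal 1 (0.83, adjusted p = 0.12).

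The comparison was also read through gene lists made from Th17n (non-pathogenic Th17, IL-6 with TGF-beta 1) and DFMO-treated iTreg libraries. None of these is among the libraries compared. They do share the animals, the gene filter, the scaling and the estimate of spread with them, so the lists are not independent of the calls. Of genes changed by DFMO in Th17n cells by at least 1 on the log2 scale, 607 rose (5.27% of those tested) and 1199 fell (10.4%). In Th17p DFMO against iTreg vehicle, 251 of the 607 were higher and 71 lower (median 0.44), and 139 of the 1199 were higher and 484 lower (median -0.57). Without DFMO the same lists had 30 higher and 173 lower (median -0.31), and 457 higher and 94 lower (median 0.47). The lists thus stood on opposite sides of iTreg cells in the 2 comparisons. Of genes that differed by at least 1 between Th17n and iTreg cells, both under DFMO, 641 were higher in Th17n (5.56%) and 486 lower (4.22%). Of the 641, 260 were higher and 78 lower in Th17p DFMO against iTreg vehicle (median 0.51, and 50 lower without animal 2), against 380 and 16 without DFMO (median 1.20). Of the 486, 9 were higher and 353 lower (median -1.81), against 12 and 284 without DFMO (median -1.29). Genes lower than in iTreg cells in the one lineage were thus mostly lower in the other, with a median further from 0 with DFMO than without.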

How the data were processed

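RNA-seq of 36 samples was deposited, 2 runs of each of 18 libraries. Per the submitters' processing notes, the authors used Bowtie2, RSEM and GRCm38.p3, and the deposited tables hold estimated counts and TPM for 20817 genes. Versions, annotation and strandedness: not given in the sources used here. Of the counts, 12.2% were not whole.

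Runs were summed per library and counts rounded. Library totals were 8307662 to 13986943, which with 3 animals per group limits the precision. edgeR 4.0.16 in R 4.3.3 fitted all 18 libraries with TMM scaling, its expression filter (11526 genes) and a robust quasi-likelihood test with Benjamini-Hochberg adjustment. limma 3.58.1 on log2(TPM + 1) and DESeq2 1.42.0 were alternatives, with other scaling, filters, runs, left-out animals and an animal block. Counting intervals (95%) and the floor of 3 counts cover counting error only. Gene positions come from GENCODE M21, which matched 20088 genes.

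Labels give each group animals 1 to 3. Deviations from group means had a median correlation of 0.191 within animals (45 pairs) and -0.0994 between (90 pairs), and 0.149, 0.228 and 0.291 for the compared pairs.

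The rule for naming genes took the 12 called genes that rose most and the 12 that fell most, the 6 raised and 6 lowered most by DFMO, a core list, and up to 4 genes per list by smallest p. A further 34 genes named in the text were chosen after their values were seen. Members and lists were chosen with earlier results of these data known. A few list members enter the counts but are not reported here by name.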

Additional observations from a re-analysis of the deposited data

How the results depend on the processing

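Of 173 named genes, 150 were called in Th17p DFMO against iTreg vehicle, and 135 of these kept direction and call under all 13 alternatives. With 1 animal left out, genes called numbered 1382 to 1749 higher and 1528 to 1632 lower in that comparison. They numbered 1180 to 1421 higher and 1097 to 1232 lower in Th17p vehicle against iTreg vehicle, and 1119 to 1233 higher and 1297 to 1399 lower in Th17p DFMO against Th17p vehicle. With a replicate block for the animal the first comparison called 2440 higher and 2228 lower, and the block changed the calls of Maf, Srm, Sat1 and Gbp2 given above and of Smad7 (-0.56, adjusted p = 0.037 in edgeR), and of no other named gene in that comparison. Signs turned only for genes that were not called. With 1 animal left out, Rora ranged over -0.17 to 0.05 (0.01 without animal 3), Ctla4 over -0.20 to 0.06, Itgae over -0.12 to 0.20 (-0.01 without animal 3), Itga7 over -0.54 to 0.50, Cd8b1 over -0.04 to 0.15, Itga2b over -1.37 to 0.58 and Klf1 over -0.28 to 0.06. Rora was 0.00 and Itga7 -0.19 with run 2 alone. Without scaling factors Itgae was -0.07, Itga7 -0.04, Cd8b1 -0.05 and Cst3 -0.02. Itga7 was -0.00 in DESeq2, and on the TPM scales Itgae was -0.01 and -0.05 and Itga7 -0.01 and -0.04. The cause was not tested. Genes with few counts are limited by depth.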

Other observations

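Cholesterol synthesis genes were lower in both kinds of Th17p cell. In Th17p DFMO against iTreg vehicle cells 13 of 24 were lower and 0 higher (median log2 fold change -0.58), and without DFMO 10 were lower and 0 higher (median -0.52). Tm7sf2 (-2.15 with DFMO), Nsdhl (-1.18) and Dhcr7 (-1.05), late enzymes of the pathway, and Idi1 (-0.95), an earlier one, were lower. Of 11 tested co-inhibitory receptor genes 5 were higher and 0 lower with DFMO (median 0.99), and 9 and 0 without (median 1.88), with DFMO lowering 6. Pdcd1, the gene of PD-1, was higher with DFMO (0.99 ± 0.14) and not called without (0.13 ± 0.14), and Cd200 was higher in both (1.88 ± 0.16 and 2.07 ± 0.16). Of 18 co-stimulatory genes 10 were higher and 4 lower with DFMO, and 7 and 3 without, among them Cd28 (1.23 ± 0.11 and 1.76 ± 0.11). Slamf7 was higher by 1.77 ± 0.19 with DFMO and 4.07 ± 0.19 without.

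Of 19 chemokine receptor and adhesion genes 7 were higher and 6 lower with DFMO (median -0.58), and 8 and 5 without (median 0.61). Of 18 naive and memory genes 5 were higher and 5 lower with DFMO (3 higher without animal 2), and 8 and 4 without. Satb1, a chromatin organiser, was higher by 2.39 ± 0.12 with DFMO and 3.07 ± 0.12 without. Of 12 tested Th1 genes 4 were higher and 3 lower with DFMO, and of 8 Th2 genes 3 and 4, with the Th2 factor Gata3 lower in both comparisons (-1.32 ± 0.22 and -1.86 ± 0.23). Of 8 genes tied to non-pathogenic Th17 cells 3 were higher and 3 lower with DFMO, and 0 higher without animal 1. Of 16 IL-2 and STAT5 genes 5 were higher and 3 lower with DFMO (3 higher without animal 2), and of 16 IL-1 and NF-kB genes 4 and 4 (2 lower without animal 2, 1 without animal 3). Of 22 apoptosis regulators 3 were higher and 6 lower with DFMO (0 higher and 2 lower without animal 2). Of 25 histone demethylase and polycomb genes 2 were higher and 6 lower with DFMO, and 6 and 7 without. Of all genes tested, 19.7% were higher and 18.3% lower with DFMO, and 15.7% and 14.5% without. Beside these stand, with DFMO, 25% and 25% of the IL-1 and NF-kB genes and 31.2% and 18.8% of the IL-2 and STAT5 genes. The apoptosis regulators had 13.6% and 27.3%, and the histone demethylase and polycomb genes 8% and 24%. Counts this near the share of all genes are no result about the lists.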
